A study of Homo sapiens with 15 samples.

Results

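The proteasome genes were followed across 15 RNA sequencing libraries from 2 established human cell lines. A gene was taken as a member when its type was protein_coding, its symbol began with PSM, a letter from A to G and a digit, and it stood in the count tables of both lines, with PSMB8 and PSMB9 left out. This gave 46 members of 62703 genes in the HEK293T table and 35595 in the HuCCT1 table. Of these, 44 encode proteasome subunits, their assembly chaperones, activators or the inhibitor PSMF1, while PSMC3IP and PSME3IP1 match by their letters and encode other proteins. PSMA8 and PSMB11 matched in the HEK293T table alone and are not members.

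HEK293T is a line from human embryonic kidney grown in DMEM, and HuCCT1 is a bile duct cancer line grown in RPMI-1640. HEK293T was sequenced as SNRPD2KO, PUS7KO and Ctrl and HuCCT1 as SNRPD2KO and Ctrl, with 3 libraries in each of the 5 groups. The labels mark knockouts of SNRPD2, a core protein of the splicing machinery, and of PUS7, a pseudouridine synthase. The labels used here do not say whether the lines are clones or whether replicates are separate cultures. A p-value therefore sets a difference against the spread between these libraries, and that spread may be technical.

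The proteasome degrades proteins tagged with ubiquitin. Its 20S core is a barrel of alpha rings, which form the gate, and beta rings, in which PSMB5, PSMB6 and PSMB7 carry the proteolytic sites. The 19S cap has a base of ATPases that unfold substrates and a lid that removes ubiquitin, and dedicated chaperones help to build both parts. Alternative caps (PSME1 with PSME2, PSME3, and PSME4) open the core without ATP, and the transcription factor NRF1 (gene NFE2L1) is known to raise the subunit genes together through antioxidant response elements when proteasome activity falls short.

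The target genes were read first. PUS7 stood at 13.7, 18.1 and 16.3 CPM (counts scaled to a common library total with TMM factors) in the HEK293T libraries of its knockout, and Ctrl held 26.5, 26.0 and 27.1 CPM (log2 difference -0.72, SE 0.11, adjusted p = 6.722e-05, edgeR's quasi-likelihood test). SNRPD2 went against its label in both lines. It stood at 309, 286 and 246 CPM in the HEK293T libraries labelled SNRPD2KO, at 266, 236 and 280 in PUS7KO and at 196, 168 and 182 in Ctrl. In HuCCT1 it stood at 260, 286 and 318 CPM in the libraries labelled SNRPD2KO and at 160, 146 and 157 in Ctrl (0.62, SE 0.10, adjusted p = 4.864e-05 in HEK293T and 0.90, SE 0.07, adjusted p = 1.819e-06 in HuCCT1). Every direction given below for SNRPD2KO is therefore that of libraries with that label, not of a measured loss of SNRPD2 RNA.

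The depth of the HEK293T libraries lay between 7944276 and 11270267 counts, and that of the HuCCT1 libraries between 13776166 and 16795618. The 3 HEK293T Ctrl libraries stood apart from the 6 knockout-labelled ones, with at most 9202622 counts against at least 10022912, and yet with 29551 to 30073 genes holding a count against 24947 to 27460. This moves with every HEK293T difference from Ctrl given below, and its part in them was not tested. The bile duct epithelial markers KRT7 and KRT19 stood at 4595 and 1873 CPM in HuCCT1 Ctrl and at or below 0.0379 CPM in every HEK293T group, and the HEK293T marker NEFM stood at 19.8 CPM in its Ctrl and 0.105 in HuCCT1 Ctrl. PAX2, listed as a HEK293T marker, was at most 0.451 CPM in any group's mean. Of 7 markers of blood, endothelial, connective tissue and liver cells, all but COL1A1 averaged at most 0.823 CPM in the groups where they were listed. COL1A1, a collagen gene, averaged 3.12 CPM in HEK293T Ctrl, 4.24 in SNRPD2KO and 4.71 in PUS7KO (the last called higher, 0.59, adjusted p = 0.03771), and 9.05 in HuCCT1 Ctrl against 16.3 in SNRPD2KO (0.85, adjusted p = 3.183e-05). Its part in the results was not tested. In bulk libraries such as these, fewer cells of a kind and less RNA per cell cannot be told apart.

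In HEK293T, the libraries labelled SNRPD2KO had 20 members higher and 13 lower than Ctrl among the 42 that could be tested. Over all 15882 genes 26.9% were called higher and 26.4% lower, and the median log2 fold change was 0.22 over these members and 0.02 over all genes tested. The groups did not overlap for 18 of the 20 members called higher and for 13 of the 13 called lower, beside 95.9% and 96.5% of all genes called higher and lower. Without the filter on low counts 7 members were lower, with the calls on PSMA3, PSMA6, PSMB2, PSMC1, PSMC2 and PSMD6 lost. That setting moved the log2 fold changes of all genes held by both fits up by a median of 0.08. In PUS7KO against Ctrl, 12 members were higher and 17 lower, beside 25.6% and 23.8% of all genes, with a median of -0.09 against 0.01. Without that filter 10 were lower, with PSMA3, PSMA6, PSMA7, PSMC1, PSMD7, PSMD10 and PSME2 lost, and the median shift over genes held by both fits was 0.09. Both comparisons use the same 3 Ctrl libraries, so their values are given side by side and are not independent of each other. In HuCCT1, 11 members were higher and 16 lower of 45 tested, beside 28.8% and 28.4% of 15007 genes, with a median of -0.13 against 0.00253 over all genes. Per kilobase of exon, the levels in HEK293T Ctrl were led by PSMB4 (304 CPM per kb, SD 14.7, n = 3), PSMB7 (240, SD 22.2) and PSMB1 (201, SD 15.5), and in HuCCT1 Ctrl by PSMD2 (326, SD 5.10), PSMB6 (296, SD 13.79) and PSMA7 (239, SD 8.05). The members summed to between 4747 and 5070 CPM in HEK293T Ctrl, 4457 and 4923 in PUS7KO and 4817 and 5591 in SNRPD2KO, and to between 7135 and 7306 in HuCCT1 Ctrl against 6236 and 6778 in SNRPD2KO. The genes moved in both directions within most parts of the particle, as the plot of fold changes by role shows.

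**Figure D1:**
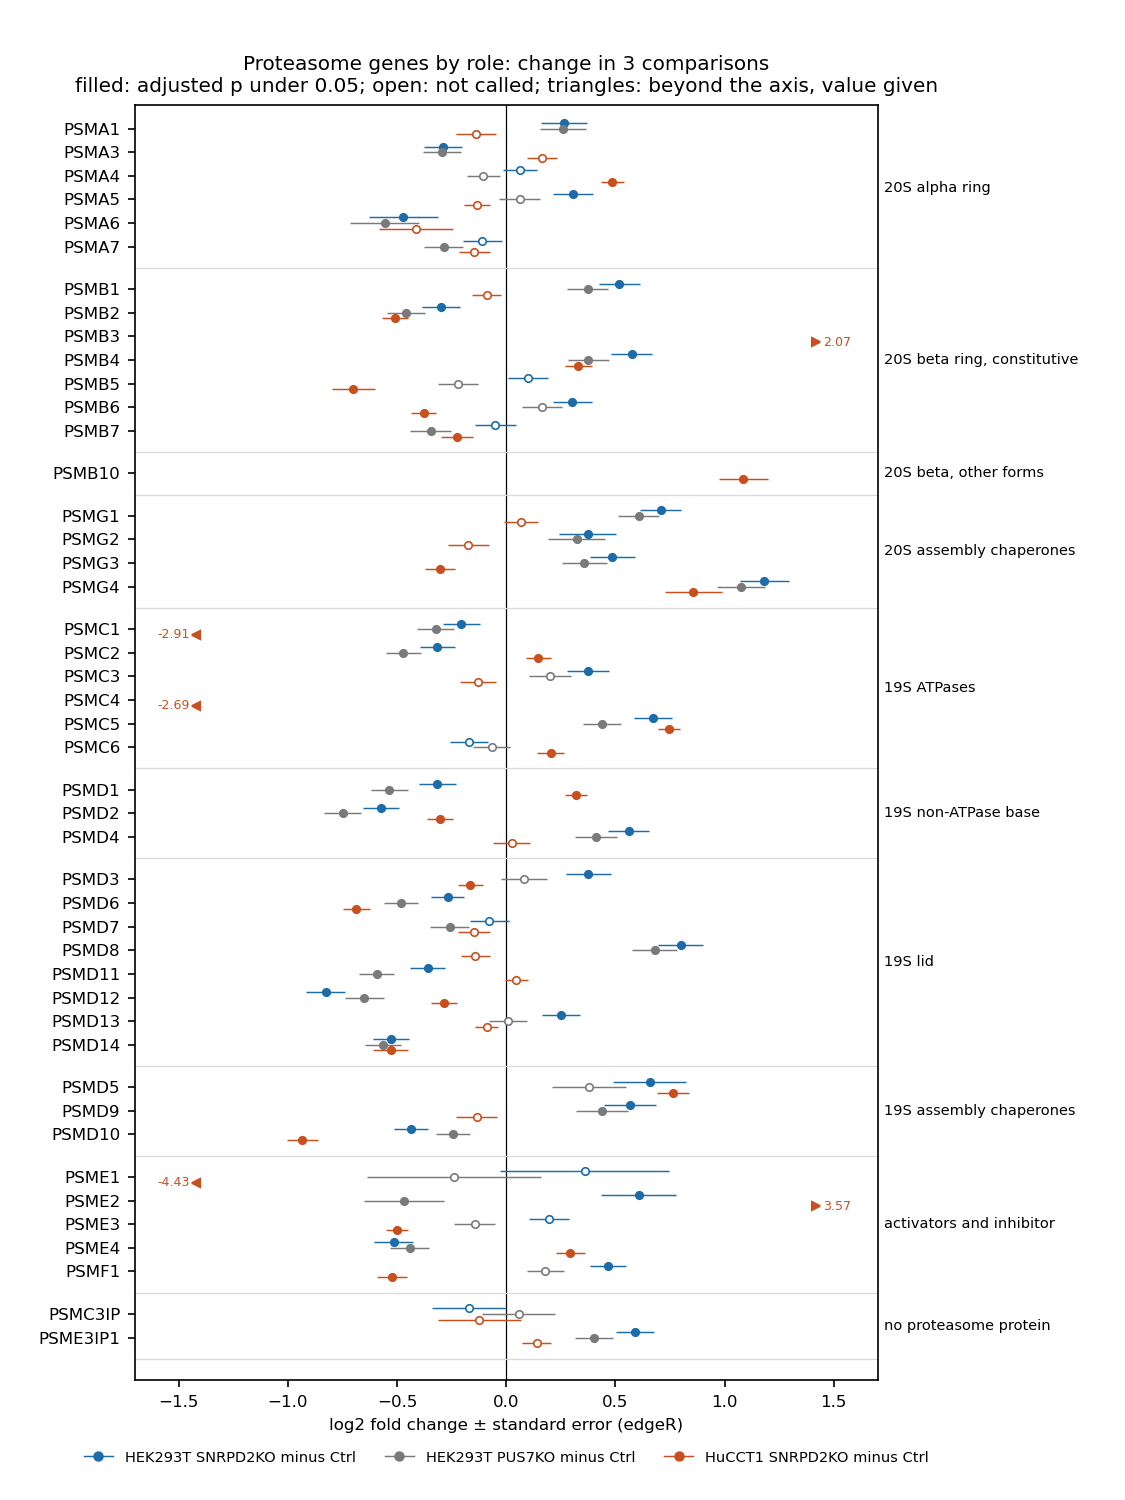
Log2 fold change (x axis) with its standard error for each tested member (rows, grouped by role) in 3 comparisons, from 3 libraries per group; filled points passed an adjusted p of 0.05 in edgeR. The 4 PSMG chaperones lie to the right of 0 in both HEK293T comparisons, and triangles mark 5 HuCCT1 values beyond the axis.

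The 4 chaperones that assemble the 20S core, PSMG1 to PSMG4, were all called higher in both HEK293T comparisons. The share of all genes called higher was 26.9% in SNRPD2KO and 25.6% in PUS7KO, and both comparisons use the same 3 Ctrl libraries. PSMG4 (chr6:3231403-3303373, plus strand, in the deposited hg38 coordinates), which acts with PSMG3 early in alpha ring assembly, stood at 32.2, 30.5 and 27.0 CPM in HEK293T SNRPD2KO, 27.2, 29 and 26.8 in PUS7KO and 12.7, 13.2 and 13.5 in Ctrl. All 6 knockout-labelled libraries lay above all 3 Ctrl libraries (log2 fold change 1.18, SE 0.11, adjusted p = 2.481e-07, and 1.07, SE 0.11, adjusted p = 9.133e-07, edgeR). PSMG4 overlaps 2 other annotated genes, 0 on its strand, that together held 11658 counts in HEK293T beside its own 2135. PSMG1, partner of PSMG2 in a second early chaperone pair, stood at 44.0, 49.2 and 42.0 CPM, then 41.1, 42.0 and 42.9, against 27.2, 27.5 and 28 in Ctrl (log2 fold change 0.71 and 0.61). The rises of PSMG2 and PSMG3 were smaller, at 0.37 and 0.49 in SNRPD2KO and 0.32 and 0.36 in PUS7KO, and the PSMG2 groups overlapped in both. The call on PSMG2 was lost when single libraries were left out, for example at an adjusted p of 0.08102 in SNRPD2KO without Ctrl replicate 3. In HuCCT1, PSMG4 was again higher, at 16.9, 19.1 and 21.0 CPM against 12.3, 10.2 and 8.90 (log2 fold change 0.86, SE 0.13, adjusted p = 0.0001992). PSMG3 fell there by 0.30 on the log2 scale (adjusted p = 0.002527), PSMG1 and PSMG2 were not called (0.07 and -0.17), and the difference between the lines passed the test for PSMG1, PSMG2 and PSMG3 but not for PSMG4 (-0.37, adjusted p = 0.1194). POMP, the 20S maturation factor outside the symbol rule, fell in all 3 comparisons, by 0.55, 0.65 and 0.37 on the log2 scale.

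**Figure D2:**
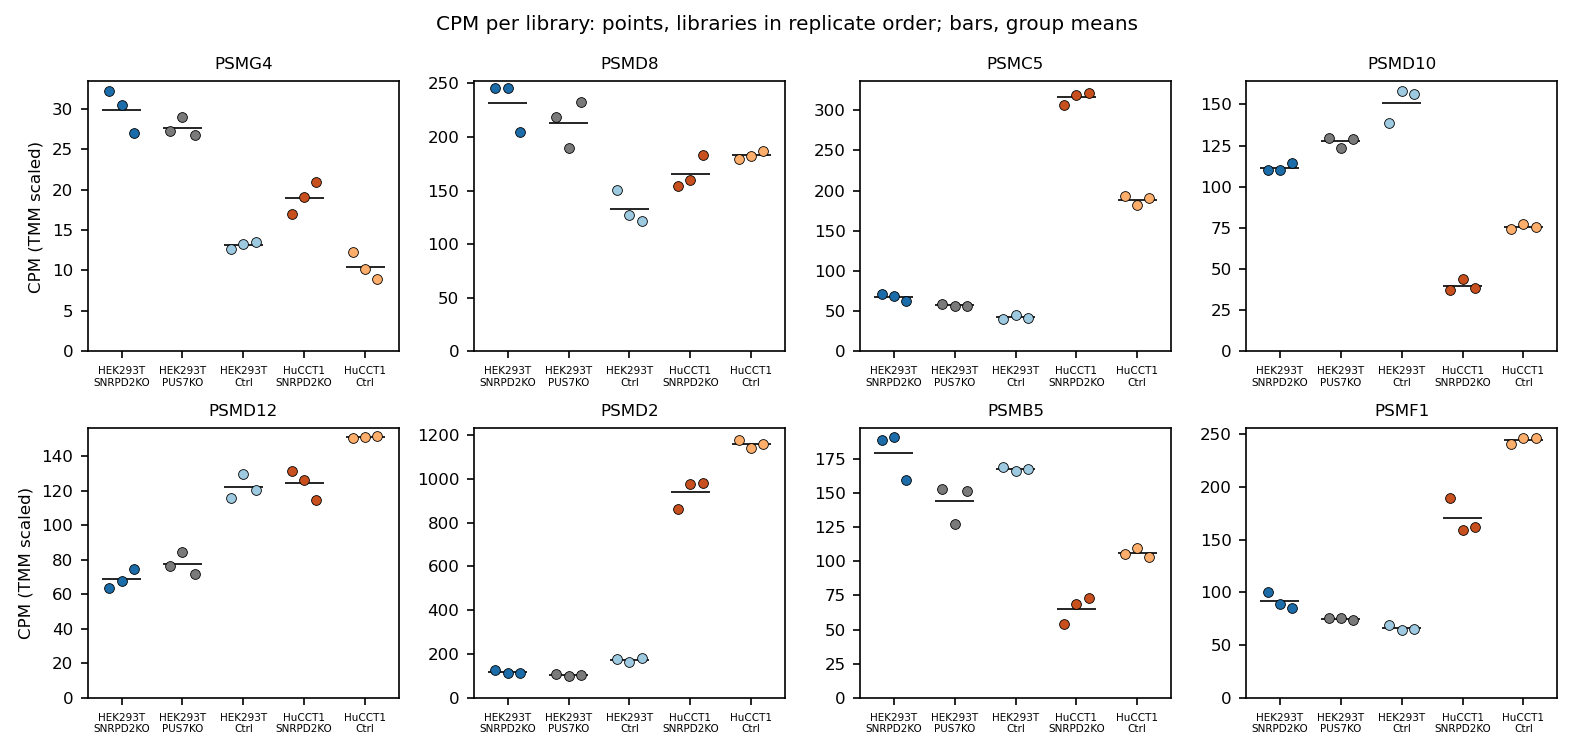
TMM-scaled CPM (y axis) in each of the 15 libraries for 8 members, with points for libraries and bars for group means. PSMG4 and PSMC5 are higher than Ctrl in every knockout-labelled library of both lines, PSMD12 and PSMD10 are lower in every one, and PSMF1 moves up in HEK293T SNRPD2KO and down in HuCCT1 SNRPD2KO.

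Among the 6 alpha subunits tested, 2 rose, 2 fell and 2 were not called in HEK293T SNRPD2KO. In PUS7KO 1 rose and 3 fell, and in HuCCT1 1 rose and none fell. Of all genes, 26.9%, 25.6% and 28.8% were called higher in these comparisons, and 26.4%, 23.8% and 28.4% lower. PSMA5 stood at 176, 180 and 154 CPM in HEK293T SNRPD2KO and 144, 135 and 134 in Ctrl (log2 fold change 0.31, adjusted p = 0.00986). PSMA3 moved the other way, at 101, 103 and 89.5 CPM against 128, 112 and 118 (-0.29, adjusted p = 0.009483). That call was lost without SNRPD2KO replicate 3 (-0.21, adjusted p = 0.05991), and with a per-library trend in GC content removed the value turned to 0.25 (adjusted p = 0.05799). PSMA1 was called higher in both HEK293T comparisons (0.27 and 0.26), and either call was lost with DESeq2 (adjusted p = 0.07776 and 0.09194). PSMA6, at 8.80, 7.04 and 7.25 CPM in HEK293T SNRPD2KO, 7.16, 7.76 and 6.76 in PUS7KO and 11.7, 10.2 and 10.1 in Ctrl, was the lowest alpha subunit that could be tested in HEK293T (-0.47 and -0.56). Its SNRPD2KO call was lost without Ctrl replicate 1 (adjusted p = 0.07195). In HuCCT1, PSMA4 was the alpha subunit called, at 185, 179 and 170 CPM against 124, 127 and 130 (log2 fold change 0.49, SE 0.05, adjusted p = 1.733e-05).

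The 3 proteolytic subunits did not move as 1 unit in HEK293T, while all 3 were called lower in HuCCT1, beside 28.4% of all genes. PSMB5, the chymotrypsin-like site, stood at 188, 190 and 159 CPM in HEK293T SNRPD2KO, 153, 128 and 151 in PUS7KO and 169, 166 and 167 in Ctrl, and neither difference from Ctrl passed (0.10, adjusted p = 0.3764, and -0.22, adjusted p = 0.05658). The second of these passed in DESeq2, at -0.24 with an adjusted p of 0.02883. In HuCCT1 it was clearly separated, at 53.8, 68.4 and 73.4 CPM against 105, 109 and 103 (log2 fold change -0.70, SE 0.10, adjusted p = 9.818e-05). PSMB6, the caspase-like site, rose in HEK293T SNRPD2KO, at 174, 169 and 148 CPM against 141, 132 and 125 (0.30, adjusted p = 0.009983). It fell in HuCCT1, at 192, 195 and 209 CPM against 272, 249 and 253 (-0.38, adjusted p = 0.0001712). PSMB7, the trypsin-like site, was not called in HEK293T SNRPD2KO (-0.05) and fell in PUS7KO, at 195, 167 and 194 CPM against 259, 231 and 217 (-0.35, adjusted p = 0.006533). It also fell in HuCCT1 (-0.23, adjusted p = 0.02032), a call lost without Ctrl replicate 1 (adjusted p = 0.07047) or without Ctrl replicate 3 (0.05655). Of the structural beta subunits, PSMB4 was called higher in all 3 comparisons (0.57, 0.38 and 0.33) and PSMB2 lower in all 3 (-0.30, -0.46 and -0.51). PSMB10, the interferon-inducible replacement for PSMB7, had 357, 316 and 363 counts in HuCCT1 SNRPD2KO against 162, 147 and 135 in Ctrl (log2 fold change 1.09, SE 0.11, adjusted p = 8.963e-06). In HEK293T it had between 5 and 20 counts a library and was not tested.

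In the base of the 19S cap the ATPase PSMC5 (chr17:63827152-63832026, plus strand) rose in each comparison with Ctrl. It stood at 71.7, 68.3 and 63.1 CPM in HEK293T SNRPD2KO, 59.0, 57.1 and 56.3 in PUS7KO and 40.4, 45.3 and 41.6 in Ctrl. In HuCCT1 it stood at 307, 319 and 322 CPM against 193, 183 and 191, and the log2 fold changes were 0.67, 0.44 and 0.74. The groups did not overlap in any of these, and the response in HuCCT1 minus that in HEK293T was 0.03 (SE 0.10, adjusted p = 0.8705). PSMC5 overlaps 1 other annotated gene, on the opposite strand. That gene held 6124 counts in HEK293T beside 5012 for PSMC5, and 30043 in HuCCT1 beside 24374. PSMC2 had the opposite direction in the lines, at 99.8, 93.5 and 86.8 CPM against 119, 113 and 117 in HEK293T and 160, 172 and 172 against 150, 146 and 159 in HuCCT1 (-0.32 and 0.15). The HuCCT1 call was lost in DESeq2 (adjusted p = 0.06726), and PSMC2 overlaps 4 other annotated genes, 2 on its strand, that together held 10013 counts in HEK293T beside its own 8607. PSMC3 rose in HEK293T SNRPD2KO (0.37), and PSMC6 rose in HuCCT1 (0.20).

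The scaffold subunit PSMD2 (chr3:184299198-184309050, plus strand) fell throughout. It stood at 127, 113 and 113 CPM in HEK293T SNRPD2KO, 107, 98.2 and 106 in PUS7KO and 179, 162 and 183 in Ctrl (log2 fold change -0.57 and -0.75). In HuCCT1, where it had the highest level per kilobase of exon of any member in Ctrl (326 CPM per kb), it stood at 861, 976 and 982 CPM against 1178, 1142 and 1159 (-0.30). PSMD1, the second scaffold, fell in HEK293T at 199, 190 and 172 CPM against 253, 229 and 215 (-0.32), and rose in HuCCT1 at 238, 251 and 240 CPM against 187, 200 and 197 (0.32). The ubiquitin receptor PSMD4 rose in both HEK293T comparisons (0.56 and 0.41) and was not called in HuCCT1 (0.02, adjusted p = 0.8279).

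The lid split between members in HEK293T. In HuCCT1, 4 of its 8 members were called lower and 0 higher, beside 28.4% and 28.8% of all genes. PSMD12 (chr17:67337916-67366605, minus strand), a lid scaffold subunit, showed the largest fall of any member in HEK293T SNRPD2KO, at 63.6, 67.9 and 74.4 CPM against 116, 130 and 120 in Ctrl, and stood at 76.3, 84.6 and 71.9 in PUS7KO (log2 fold change -0.83, SE 0.09, adjusted p = 1.158e-06, and -0.65). In HuCCT1 the gap was narrower, at 132, 126 and 115 CPM against 151, 151 and 152 (-0.28, adjusted p = 0.001916). PSMD14, the deubiquitinase of the lid, stood at 91.3, 92.0 and 84.1 CPM in HEK293T SNRPD2KO, 92.2, 88.1 and 80.1 in PUS7KO and 124, 136 and 125 in Ctrl. In HuCCT1 it stood at 101, 128 and 115 CPM against 159, 171 and 166, so that its log2 fold change was -0.53, -0.56 and -0.53 in the 3 comparisons. With a per-library trend in GC content removed, the first of these turned to 0.33 (adjusted p = 0.02205), as described below. PSMD6 was also called lower in all 3 (-0.27, -0.48 and -0.69), although the first turned to 0.16 (adjusted p = 0.1589) with the GC trend removed, and PSMD11 fell in both HEK293T comparisons (-0.36 and -0.59). PSMD8 moved the other way, at 246, 246 and 205 CPM in SNRPD2KO, 219, 190 and 232 in PUS7KO and 151, 127 and 122 in HEK293T Ctrl (0.80, SE 0.10, adjusted p = 8.044e-06, and 0.68). In HuCCT1 the PSMD8 groups overlapped (-0.14, adjusted p = 0.09141), and the difference between the lines was -0.98 (adjusted p = 8.857e-06). PSMD3 rose in HEK293T SNRPD2KO (0.38) and fell in HuCCT1 (-0.16, adjusted p = 0.02611), a call lost when any HuCCT1 library except SNRPD2KO replicate 3 was left out.

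The chaperones of the 19S base also went in different directions. PSMD5 stood at 23.4, 17.8 and 16.4 CPM in HEK293T SNRPD2KO against 11.2, 15.4 and 9.89 in Ctrl, and at 58.0, 56.9 and 54.0 against 30.8, 32.6 and 36.1 in HuCCT1 (log2 fold change 0.66 and 0.77). In PUS7KO it was not called (0.38, adjusted p = 0.07585). PSMD9 rose in HEK293T (0.57 and 0.44) and was not called in HuCCT1 (-0.13). PSMD10, also known as gankyrin, fell in HEK293T SNRPD2KO at 110, 110 and 114 CPM against 139, 158 and 156, and in HuCCT1 at 37.1, 43.7 and 38.3 CPM against 74.7, 77.4 and 75.5 (-0.43 and -0.93). The HuCCT1 response was the larger fall (difference -0.55, SE 0.11, adjusted p = 0.0005221). PSMD10 also fell in PUS7KO (-0.24), a call lost without Ctrl replicate 2 (adjusted p = 0.08085), Ctrl replicate 3 (0.06354) or PUS7KO replicate 2 (0.05862).

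The inhibitor and one of the activators moved in opposite directions in the 2 lines. PSMF1 (chr20:1113240-1189415, plus strand), which binds the core and inhibits it in vitro, stood at 100, 89.2 and 85 CPM in HEK293T SNRPD2KO and 69.2, 63.9 and 65.7 in Ctrl. In HuCCT1 it stood at 190, 159 and 162 CPM against 241, 246 and 247. The log2 fold changes were 0.46 and -0.52, with a difference of -1.03 (SE 0.11, adjusted p = 1.482e-06). PSME4, the nuclear PA200 activator, did the reverse, at 66.7, 62.3 and 69.4 CPM against 89.6, 105 and 89.4 in HEK293T and 81.4, 93.5 and 84.6 against 69.4, 69.9 and 72.4 in HuCCT1 (-0.52 and 0.29). PSME3, the nuclear PA28 gamma activator, fell in HuCCT1 at 384, 365 and 355 CPM against 514, 526 and 522 (-0.50) and was not called against Ctrl in HEK293T (0.19 and -0.14). PSME2, a subunit of the interferon-inducible PA28 cap, rose in HEK293T SNRPD2KO and fell in PUS7KO, at 17.7, 12.2 and 13.0 CPM, 8.12, 6.34 and 5.83, and 9.43, 10.2 and 8.52 in Ctrl. The values against Ctrl were 0.61 (adjusted p = 0.007263) and -0.47 (adjusted p = 0.04358), and the second was lost without, for example, PUS7KO replicate 3 (-0.36, adjusted p = 0.1587).

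Set directly against PUS7KO, the HEK293T libraries labelled SNRPD2KO had 2 members higher and 0 lower of 42, beside 1.57% and 3.2% of all genes in edgeR. At an unadjusted p under 0.05, 16 were higher and 1 lower, beside 10.4% and 11.8% of all genes, and DESeq2 and limma voom also called 0 lower. The 2 were PSME2 (1.08, SE 0.18, adjusted p = 0.00925) and PSME3, at 127, 121 and 105 CPM against 96.2, 84.1 and 98.6 (0.34, adjusted p = 0.04635). The count of members higher depended on SNRPD2KO replicate 3. In that library the members lay a median of 0.19 log2 units below the other 2 replicates (quartiles -0.25 and -0.14), and they summed to 4817 CPM against 5591 and 5507. Without it 13 of 43 members were higher, beside 5.09% of 16626 genes in the same fit, and the median over the members went from 0.16 to 0.22. Without SNRPD2KO replicate 1, 0 were higher, beside 0.054% of genes, and leaving out SNRPD2KO replicate 2, PUS7KO replicate 1 or 2, or Ctrl replicate 1 or 2 left 1.

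Of the 42 members tested in both lines, 5 were higher in both SNRPD2KO comparisons (PSMB4, PSMC5, PSMD5, PSME2 and PSMG4), 7 were lower in both (PSMB2, PSMC1, PSMD2, PSMD6, PSMD10, PSMD12 and PSMD14), and 7 were called in opposite directions. Over all 12708 genes tested in both lines the shares were 12.6%, 11.6% and 12%, and the members' counts are to be read against these shares. The HuCCT1 calls on PSME2 and PSMC1 rest on uneven libraries, as given below. The HEK293T call on PSMC1 (-0.21, adjusted p = 0.04872) was lost when any 1 of the 9 HEK293T libraries was left out (adjusted p 0.05319 to 0.2967). PSMB6, PSMD3, PSMF1 and PSMG3 were higher in HEK293T and lower in HuCCT1, and PSMC2, PSMD1 and PSME4 were lower in HEK293T and higher in HuCCT1. The response in HuCCT1 minus that in HEK293T, tested as an interaction over 12 libraries, was called higher for 9 and lower for 21 of the 42 members tested within both lines, beside 23.8% and 27.1% of 12706 such genes and 19.8% and 20.9% of all 17617 genes in the fit. The median of these differences was -0.38 over the members and -0.06 over the genes tested within both lines. PSMB10, PSMB3 and PSMC4 passed the filter of that fit through HuCCT1 and were left out of these counts, since they had too few HEK293T counts for a difference to be read.

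Several members that every cell needs were nearly without counts. PSMC4, an ATPase of the base, had 0 counts in 7 of 9 HEK293T libraries and 1 in each of the others, where a count of 0 allows up to 3 counts, or 0.2496 to 0.3408 CPM in single libraries. PSMB3 had 0 or 1 counts in every HEK293T library. PSMA2 had between 0 and 3 counts in HEK293T and between 0 and 2 in HuCCT1. This limit covers counting error only. The other ATPases of the base that were tested in HEK293T stood at 40.4 CPM or more in every library. The counts show only how many reads were assigned to these genes in the deposited tables.

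In HuCCT1 several members had counts that differed many-fold between replicates of a group, and 4 of the largest calls rest on them. By the rule that a library lies more than 1 log2 unit from both others while those lie within 0.5 of each other, at a group mean of at least 5 CPM, 5 cases were found in 3 genes. PSMB3 had 1700 counts in SNRPD2KO replicate 3 beside 40 and 32, and 345 in Ctrl replicate 2 beside 35 and 35. Its difference was not called (2.07, adjusted p = 0.1799), and without SNRPD2KO replicate 3 it was -2.04 (adjusted p = 0.07599). PSMC4 had 48, 615 and 45 counts in Ctrl and 50, 39 and 26 in SNRPD2KO. Its value of -2.69 (adjusted p = 0.01857) became -0.49 (adjusted p = 0.1747) without Ctrl replicate 2. PSME1, the partner of PSME2, had 1403, 32 and 28 counts in Ctrl and 29, 24 and 19 in SNRPD2KO. Its value of -4.43 (adjusted p = 0.01428) became -0.49 (adjusted p = 0.2038) without Ctrl replicate 1. In HEK293T, PSME1 had 18 counts in PUS7KO replicate 3 beside 139 and 183, and its difference from Ctrl was -0.24 with that library and 0.25 without it, not called in either case.

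The remaining pair were uneven in a group without meeting that rule. PSME2 had 9, 176 and 338 counts in HuCCT1 SNRPD2KO and 14, 16 and 11 in Ctrl (3.57, adjusted p = 0.006217), so that replicate 1 lay below all Ctrl libraries. PSMC1, an ATPase, had 49, 113 and 26 counts in SNRPD2KO and 922, 354 and 48 in Ctrl (-2.91, adjusted p = 0.007208). With limma voom none of these 4 calls passed, at adjusted p = 0.2741 for PSME2, 0.08894 for PSMC1, 0.1615 for PSMC4 and 0.2813 for PSME1. PSMC1 has 13 named pseudogenes outside chromosome Y, and they held between 73.4% and 99.1% of the summed counts in HuCCT1 libraries, against 6.26% to 9.22% in HEK293T. Gene and pseudogenes together gave 188, 185 and 187 CPM in HuCCT1 SNRPD2KO and 220, 210 and 208 in Ctrl (log2 fold change -0.19, adjusted p = 0.007605). The difference of PSMC1 between the lines was then -0.02 (adjusted p = 0.8942) in place of -2.75. For PSME2, summed with its 6 pseudogenes, the HuCCT1 value was 1.62 (adjusted p = 0.006644) and the difference between the lines was not called (1.05, adjusted p = 0.1058). How the counting assigned reads shared by such copies was not tested.

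**Figure D3:**
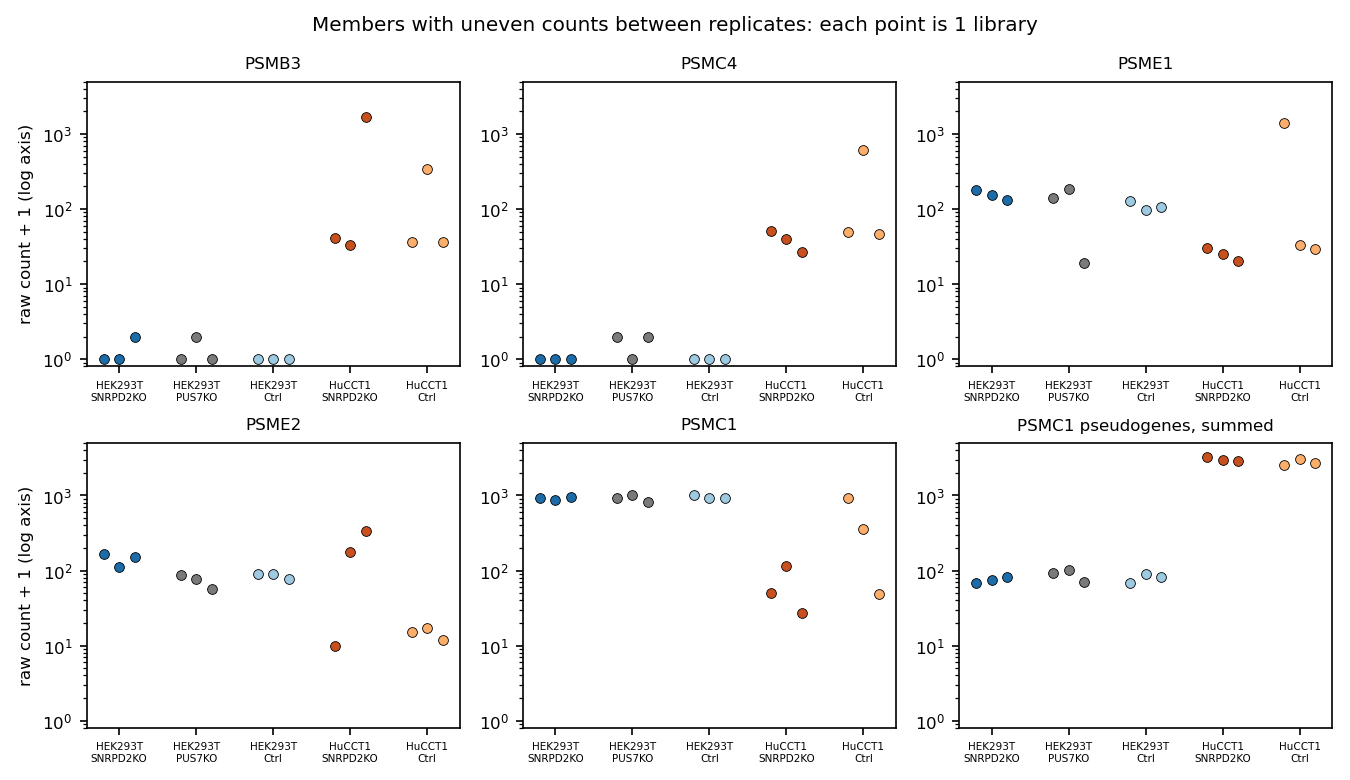
Raw count plus 1 on a log axis (y) in each of the 15 libraries for 5 members and for the summed pseudogenes of PSMC1. PSMB3, PSMC4 and PSME1 each have a single HuCCT1 library far above its replicates in at least 1 group, and the PSMC1 pseudogenes hold 2549 to 3230 counts in every HuCCT1 library while PSMC1 itself holds 26 to 922.

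The direction of change went with base composition in HEK293T. The median GC content of the longest transcript was 49.8% for the members called higher in SNRPD2KO and 41.5% for those called lower, and 49.5% and 43.6% in PUS7KO. For the members not called it was 49.6% in SNRPD2KO and 49.1% in PUS7KO, near that of the members called higher. In HuCCT1 the order was the other way, at 44.2% for the members called higher and 49.5% for those called lower. Across the 42 members Spearman's rho of fold change with GC content was 0.44 in SNRPD2KO and 0.36 in PUS7KO, and -0.05 across 45 in HuCCT1. These are descriptions over genes measured in the same libraries. PSMD14 had the lowest GC content of all members, at 32%. With a GC trend removed from each library, 4 members called lower in HEK293T SNRPD2KO turned positive: PSMD14 (0.33), PSMA3 (0.25), PSMD6 (0.16) and PSMC2 (0.09). PSMD12 kept its direction at -0.37 (adjusted p = 0.0004174), as did PSMD10 at -0.20 (adjusted p = 0.03995) and PSME4 at -0.28 (adjusted p = 0.006167). The PSMA5 rise grew from 0.31 to 0.82 and that of PSMB1 from 0.52 to 0.81. PSMG2 (0.28, adjusted p = 0.05697), PSMB6 (0.16, adjusted p = 0.1029), PSMC3, PSMA6 and PSMB2 lost their calls in the same comparison.

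**Figure D4:**
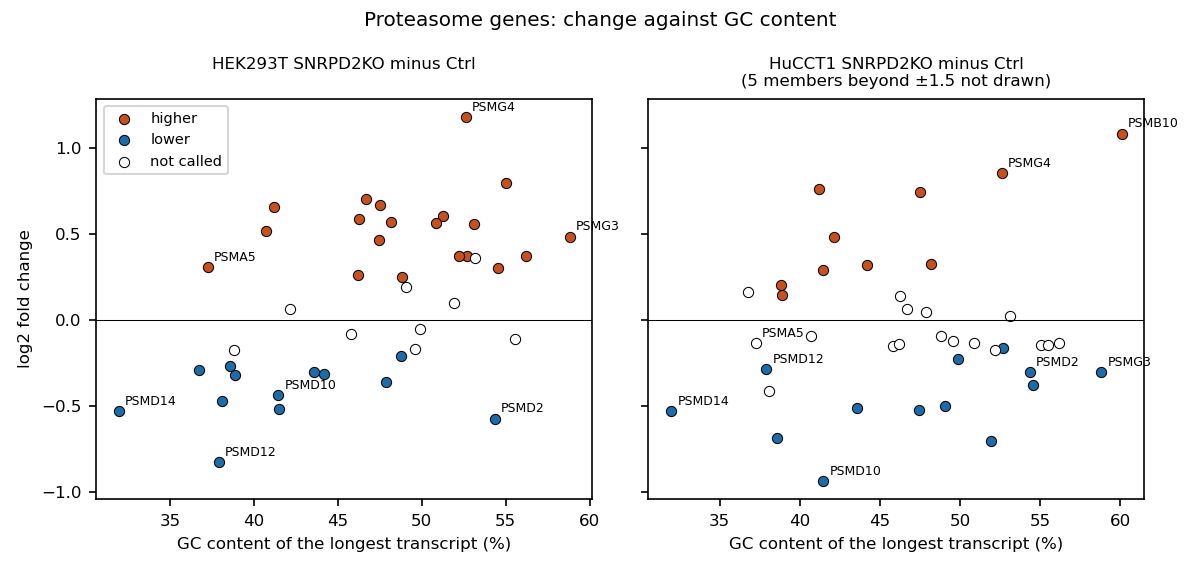
Log2 fold change (y) against the GC content of the longest transcript in percent (x) for each tested member, in HEK293T (left) and HuCCT1 (right), coloured by call. In HEK293T members called lower lie mostly at low GC content, with PSMD2 (54.3%), PSMC1 (48.7%) and PSMD11 (47.9%) as exceptions. In HuCCT1 the calls are spread along the axis, where 5 members beyond the y axis are not drawn.

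Promoter windows are shown because NRF1 acts on proteasome genes through the antioxidant response element, whose core is TGACNNNGC. In RefSeq promoters of build GRCh38.p14, from 250 bases before to 50 bases after each start, 40 of the 46 members had a window, and 14 of these 40 (35%) held the core on either strand, against 16.1% of 27305 genes. A match is a description of these letters and not a measured site. The stretches below belong to PSMC5, which rose in all 3 comparisons with Ctrl, PSMD5, which rose in both SNRPD2KO comparisons, PSMG1, which rose in both HEK293T comparisons, PSMD12 and PSME4, which fell in HEK293T, and PSMA4, which rose in HuCCT1, and were chosen after their values were seen. Each is written along the gene's strand, 5′ to 3′, and capitals mark the 9 bases of the core or of its reverse complement.
PSMC5: cgaccggatctGCTGTGTCAgcgccgccct
PSMD5: ctggctacagtTGACACGGCcctaacggag
PSMG1: ggcccagggcaTGACAGCGCgggcgggcgg
PSMD12: gagacaaaaccTGACGCTGCaggctggagt
PSME4: gcccggcggctGCAGCGTCAccagcagagc
PSMA4: cgtgggcacgaTGACTCTGCaccgcctcct
They lie at chr17:63827653-63827682 (plus strand), chr9:120843038-120843067 (minus), chr21:39183616-39183645 (minus), chr17:67366724-67366753 (minus), chr2:53971009-53971038 (minus) and chr15:78540649-78540678 (plus), in the order given. The core begins 57, 134, 183, 165, 34 and 126 bases before the RefSeq start in that order. RefSeq starts can differ from the gene starts of the deposited tables. The stretches of PSMC5 and PSMA4 lie inside the deposited gene spans, which begin at chr17:63827152 and chr15:78540405. Of all 14 members with the core, PSMC5, PSMD3, PSMD5, PSMD9, PSME2, PSMG1 and PSMG2 were called higher in HEK293T SNRPD2KO. PSMD1, PSMD12 and PSME4 were called lower there, PSMA4 and PSME1 were not called, and PSMB3 and PSMC4 were not tested. In that comparison 20 of all 42 tested members were called higher and 13 lower, beside 26.9% and 26.4% of all genes. A relation between the core and the direction of change was not tested.

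The genes around the proteasome were read from lists of partners, of NRF1 control and of ubiquitin activation. Of 18 partners outside the symbol rule, 4 rose and 9 fell in HEK293T SNRPD2KO, 5 rose and 10 fell in PUS7KO, and 4 rose and 11 fell in HuCCT1, with medians of -0.25, -0.32 and -0.24. The shares of all genes called lower were 26.4%, 23.8% and 28.4%, and those called higher 26.9%, 25.6% and 28.8%, with medians of 0.02, 0.01 and 0.00253. The shuttle factor RAD23B, which carries ubiquitin-tagged proteins to the proteasome, fell in all 3 comparisons (-0.85, -0.65 and -0.22). TXNL1, a redox protein bound to the 19S cap, fell by 0.93, 1.03 and 0.83 on the log2 scale, and the 19S receptor ADRM1 fell in HuCCT1 (-0.82) and was not called in HEK293T (0.10 and -0.19), with a difference between the lines of -0.96 (adjusted p = 9.243e-06). AKIRIN2, which brings proteasomes into the nucleus, fell by 0.41, 0.57 and 1.10. NFE2L1 itself rose in HEK293T (0.44 and 0.33) and fell in HuCCT1 (-0.44), and DDI2, the protease that activates its product, fell in all 3 (-0.93, -0.77 and -0.81). Of the 8 genes listed for NRF1 control, 1 rose and 3 fell in HEK293T SNRPD2KO, 1 rose and 2 fell in PUS7KO, and 2 rose and 3 fell in HuCCT1. Of the 2 ubiquitin-activating enzymes, UBA1 rose in all 3 comparisons (0.61, 0.34 and 0.34), and UBA6 rose in HuCCT1 (0.65), was not called against Ctrl in HEK293T (-0.27 and 0.21) and was lower in SNRPD2KO than in PUS7KO (-0.48, adjusted p = 0.03933).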

How the data were processed

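Whole-number counts per gene were deposited by the authors as 1 table per cell line, without normalization, and are the unit of every value. The submitters' processing notes name cutadapt 4.2, HISAT2 2.2.1, RSEM and hg38, with no roles; per the labels' protocols, total RNA was depleted of ribosomal RNA and sequenced with a stranded kit. The annotation release and counting options are not given in the sources used here. Every column of sample values was mapped by its label.

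Counts were fitted in R 4.3.3 with edgeR 4.0.16 (TMM factors, filterByExpr with minimum count 10 and minimum total 15, quasi-likelihood F test, two-sided, Benjamini-Hochberg adjustment over all genes, threshold 0.05). The HEK293T fit held 9 libraries, the HuCCT1 fit 6 and the interaction 12. Of the 46 members, 42, 45 and 45 passed the filter. Members had to pass it through any group, so counts over them are not counts over all members. The biological coefficient of variation was 10.8%, 10.1% and 10.5%. CPM divide counts by the TMM-scaled library total. A positive fold change is higher in the knockout-labelled group. No replicates were merged, since chi-square over its degrees of freedom was 3.42 to 12.9 between them. Exon lengths and GC content came from GENCODE 29, and promoters from RefSeq.

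Named members were up to 5 per direction and comparison (4 for the difference between the lines), those called in opposite directions, those with a library apart, and PSMB5, PSMB6 and PSMB7; others stand as examples of their role. Members, lists and this rule were chosen with earlier results of these data known. Alternatives were RLE and upper quartile factors, factors from protein_coding genes, other filters, DESeq2 1.42.0, limma 3.58.1 (voom), a replicate block, a GC trend removed, a test against 1.2-fold, 2 groups alone and each library left out. The sum of members with their pseudogenes was an alternative chosen after seeing the data. The fits were tested on simulated counts. Some genes of the lists are not reported here.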

Additional observations from a re-analysis of the deposited data

Results flagged for a closer look

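The response to the SNRPD2KO label differed between the lines for 30 of 42 members tested in both, by the interaction test in edgeR with adjusted p under 0.05: 9 differences were positive and 21 negative. Over the 12706 genes tested within both lines, 23.8% of differences were called positive and 27.1% negative. Each value is the log2 fold change in HuCCT1 minus that in HEK293T. The positive differences were 2.911 for PSME2, 0.7637 for PSME4, 0.5905 for PSMD1, 0.4974 for PSMD12, 0.4185 for PSMC2, 0.4089 for PSMA3, 0.3776 for PSMA4, 0.3608 for PSMD11 and 0.3315 for PSMC6. PSMD12 fell in both lines, and its positive value is the smaller fall in HuCCT1.

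Among the core and its chaperones, the negative differences were -0.449 for PSMA1, -0.4849 for PSMA5, -0.6519 for PSMB1, -0.8441 for PSMB5, -0.7248 for PSMB6, -0.6838 for PSMG1, -0.5896 for PSMG2 and -0.8335 for PSMG3. In the 19S cap they were -2.751 for PSMC1, -0.5483 for PSMC3, -0.5847 for PSMD3, -0.5805 for PSMD4, -0.4618 for PSMD6, -0.984 for PSMD8, -0.7464 for PSMD9, -0.5451 for PSMD10 and -0.3866 for PSMD13. Among the activators and the rest they were -4.838 for PSME1, -0.7392 for PSME3, -1.031 for PSMF1 and -0.4932 for PSME3IP1. The values of PSME1, PSME2 and PSMC1 rest on HuCCT1 libraries with uneven counts: without HuCCT1 Ctrl replicate 1 PSME1 was -0.90 (adjusted p = 0.05514), and without HuCCT1 SNRPD2KO replicate 3 PSME2 was 1.93 (adjusted p = 0.07804). The 2 lines also differ in medium, depth and count table, which cannot be told apart from the line.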

How the results depend on the processing

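No low-count filter gave 7 members lower in HEK293T SNRPD2KO, 10 lower in PUS7KO, 6 higher in SNRPD2KO against PUS7KO and 6 higher in the difference between the lines (counted here over 45 members, 10 higher and 21 lower before any change, PSMB10 included). With a GC trend removed these were 8 lower in SNRPD2KO, 4 higher against PUS7KO and 6 higher between the lines. Against 1.2-fold, 13 were higher and 5 lower in SNRPD2KO, 4 higher and 10 lower in PUS7KO, 0 higher in SNRPD2KO against PUS7KO, 6 higher in HuCCT1 and 5 higher between the lines. For SNRPD2KO against PUS7KO, DESeq2 gave 5 higher, and protein_coding factors and the 2 groups alone 1 each. Leaving out single libraries gave 0 to 13 there. For members higher and lower the ranges were 17 to 21 and 9 to 12 in SNRPD2KO, 10 to 14 and 13 to 17 in PUS7KO, 9 to 12 and 13 to 19 in HuCCT1, and 9 to 11 and 20 to 23 between the lines. The GC trend reversed 8 values: PSMA3 0.2544, PSMD14 0.326, PSMC2 0.09027 and PSMD6 0.1566 in HEK293T SNRPD2KO, and PSMC6 -0.1476, PSMA3 -0.2207, PSMC2 -0.05933 and PSMD12 -0.04419 between the lines. The cause was not tested. With a replicate block 1 member was higher in SNRPD2KO against PUS7KO in place of 2. Between groups of a line, the deviations of genes from their group means correlated between -0.086 and 0.044 for same-numbered libraries. For libraries of unlike number the range was -0.089 to 0.127. Such values cannot show whether a number marks a shared culture or batch. Genes near 0 counts limit what depth can show.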
